A study of Danio rerio with 6 samples.

Results

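The genes described here serve the visual cycle, the set of reactions that restores the light-sensitive chromophore of photoreceptors, and they were measured on 15 probe sets of 12 genes among the 15617 probe sets of an Affymetrix Zebrafish Genome Array. A probe set was taken as a member if its single gene symbol in the platform's annotation was rpe65a, rlbp1b, rbp3, rdh12l, rdh14b or bco2a, or began with rlbp1, lrat or rdh and a digit, or was rgr, rgra or rgrb, without regard to its signal. Of the genes named outright, rlbp1b has no probe set with its symbol and was not analysed here, and neither were lrata, rgra, rdh5, rdh8a or rdh8b. The 3 genes lratd1, lratd2a and lratd2b entered by the first letters of their symbols. They encode proteins with an LRAT-like domain and are not known retinol acyltransferases, so that 9 genes of retinoid and carotenoid handling remained.

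The array experiment asked which genes of the eye respond to retinoic acid (RA) while photoreceptors differentiate. Wild-type embryos of the outbred SciH line, from 3 sets of parents, were exposed between 48 and 75 hours post-fertilization (hpf) to 0.3 µM all-trans RA, or to its carrier, 0.1% DMSO, as control. Each clutch was split between the treatments. The labels number the samples 1, 3 and 4 in each treatment, and same-numbered arrays were taken to share a clutch, which the labels do not state. Each array was hybridized with amplified RNA of 1 pool of 64 eyes, dissected from frozen embryos, which gave 3 DMSO and 3 RA arrays. A pool holds whole eyes with lens, pigment epithelium, retina and attached tissue, so fewer cells of a type and less RNA per cell cannot be told apart. Values are the deposited linear signals, which have the same trimmed mean on every array, and a signal at or below 13.2, the highest seen on any array among 87 control probe sets without a target, is called background.

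In the visual cycle, 11-cis-retinal bound to opsin is turned into all-trans-retinal by light, is reduced to retinol, and passes to the retinal pigment epithelium (RPE). There it is esterified by LRAT, isomerized to 11-cis-retinol by RPE65 and oxidized by retinol dehydrogenases, and cellular retinaldehyde-binding protein (CRALBP, encoded by rlbp1 genes) carries the 11-cis retinoids. The carrier IRBP, encoded by rbp3, occupies the space between the photoreceptors and the RPE.

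No visual cycle gene passed the test for a difference between RA-treated and DMSO eyes. Of the 15 probe sets, 0 were called at a false discovery rate (FDR) of 10% by limma with Benjamini-Hochberg adjustment over all 15555 probe sets tested, where 0.842% of those tested were called (0.604% higher and 0.238% lower in RA), and 0 were called by SAM, the test named in the study's methods. At an unadjusted p under 0.05 there was 1, rlbp1a, beside 8.76% of all probe sets. In 4 the DMSO and RA arrays did not overlap, beside 15.3% of all probe sets tested: 2 were higher in RA (6.98% of all) and 2 lower (8.28% of all). In 8 the difference had the same sign in all 3 clutches (34% of all), lower in 5 (18.1% of all) and higher in 3 (15.8% of all). These shares are of all probe sets, of which many lie at background. As a check of the treatment, cyp26a1, which encodes an RA-degrading enzyme, gave 104, 126 and 145 on the DMSO arrays of clutches 1, 3 and 4, and 1557, 1611 and 1652 on the RA arrays (adjusted p = 9.4e-04). A member that did not pass is described below by its signals and the interval of its difference, and is not shown to be alike in the 2 groups.

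**Figure D1:**
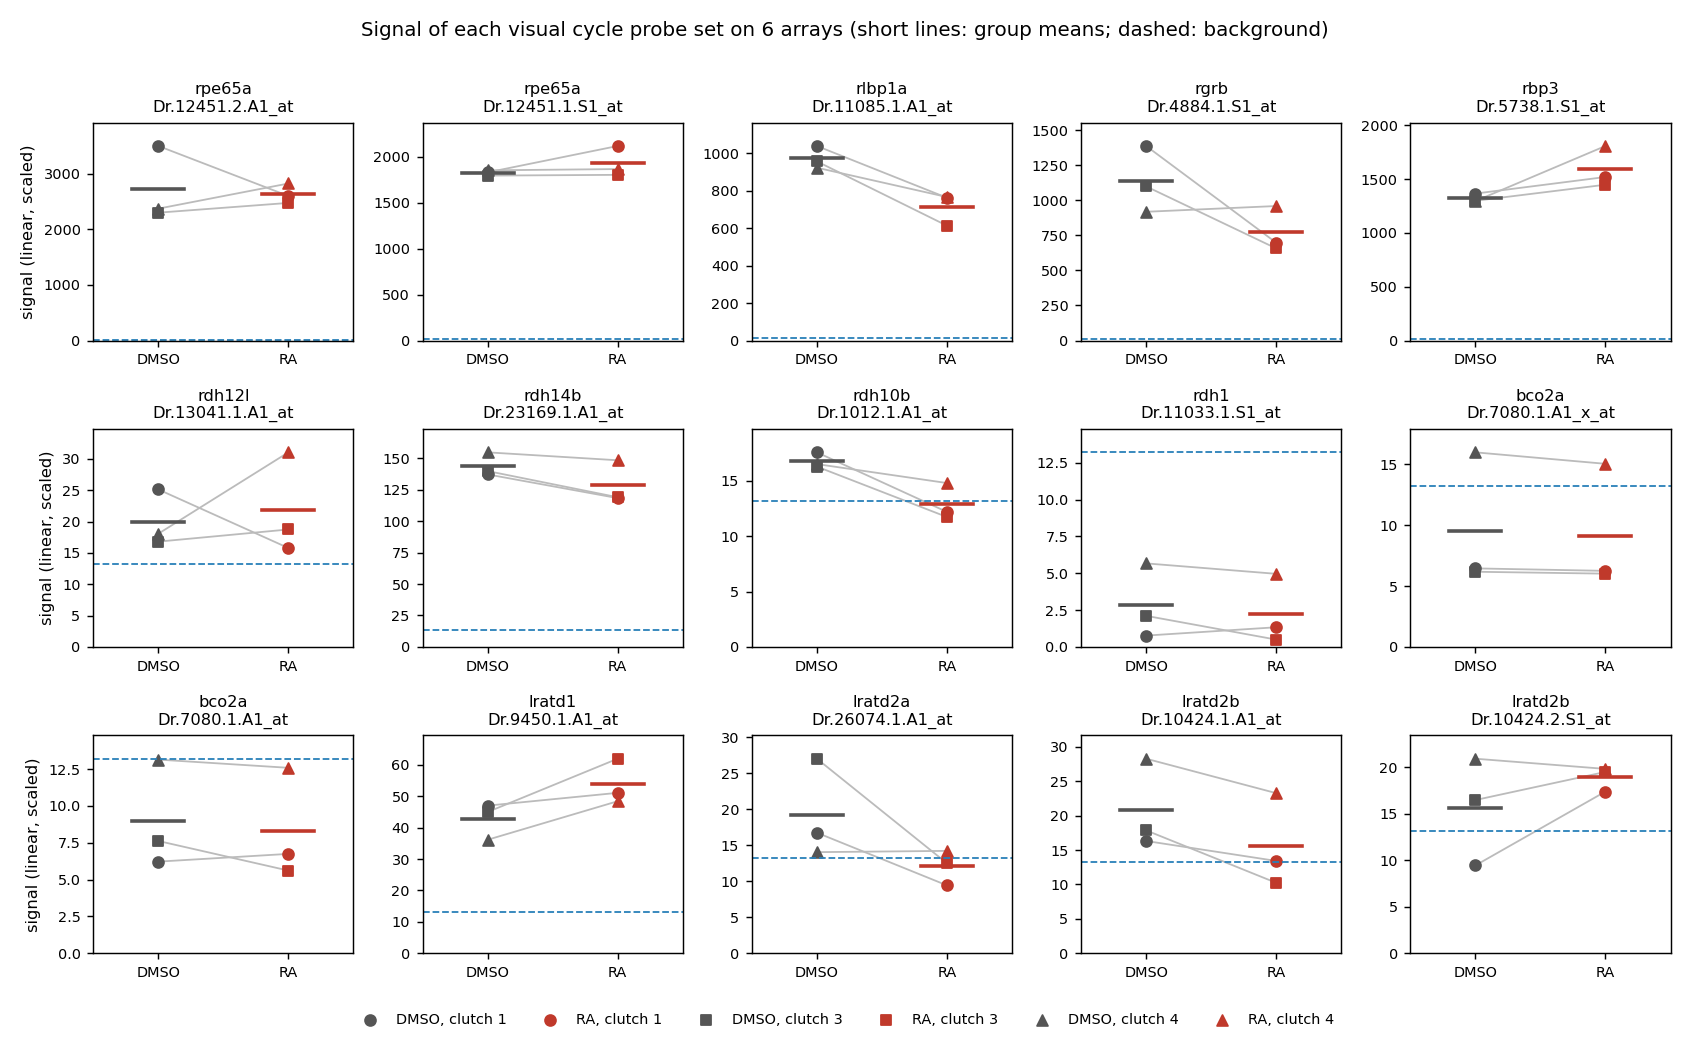
Linear scaled signal (vertical axis, from 0) of each of the 15 probe sets in DMSO and RA-treated eyes, 1 panel per probe set. Each point is an array, grey lines join the arrays of a clutch, short lines are group means and the dashed line is the background of 13.2, above which 8 of the 15 probe sets lay on all 6 arrays.

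Of the genes of the RPE, the isomerase gene rpe65a gave signals far above background in both treatments. The brighter of its probe sets gave 3495, 2297 and 2369 on the DMSO arrays of clutches 1, 3 and 4, and 2597, 2472 and 2821 on the RA arrays. The RA arrays lay within the range of the DMSO arrays, which was set by clutch 1. The log2 fold change was -0.024 with a 95% interval of -0.55 to 0.50 (adjusted p = 0.996), so that a difference of 1.41-fold upwards was within the interval. Without the DMSO array of clutch 1 the sign turned (log2 fold change 0.17, adjusted p = 0.83). That array also had the highest ratio of 3' to 5' signal for acta1, a sign of RNA quality. This ratio was 64.5, 20.2 and 12 on the DMSO arrays of clutches 1, 3 and 4, and 7.65, 11.7 and 5.3 on the RA arrays. Every DMSO array lay above every RA array, so in all comparisons here this measure cannot be told apart from the treatment. For gapdh the ratio was 2.58, 1.64 and 1.48 and then 1.74, 1.75 and 1.32, with overlap. The part of RNA quality in the values was not tested. The dimmer probe set of rpe65a gave 1831, 1796 and 1854 in DMSO eyes and 2119, 1805 and 1868 in RA-treated eyes. These were nearly level, with a log2 fold change of 0.08 (95% interval -0.30 to 0.45, adjusted p = 0.95). Both intervals held 0, and neither reached 1 on the log2 scale in either direction.

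The gene rlbp1a encodes a CRALBP and is one of a pair of zebrafish rlbp1 genes, of which this one is known from the RPE and the other, rlbp1b, from Müller glia. Its signals were 1040, 957 and 923 in DMSO eyes and 763, 614 and 767 in RA-treated eyes. Every RA array lay below every DMSO array, and the signal was lower with RA in all 3 clutches, with log2 differences of -0.45, -0.64 and -0.27. The mean went from 973 ± 59.7 (SD, n = 3 pools) to 714 ± 87.2, or -0.45 as a log2 fold change (SE 0.17, 95% interval -0.87 to -0.037). Its unadjusted limma p was 0.037, the lowest of the 15 probe sets, and the adjusted p = 0.53 missed the threshold. With the clutch as a block the adjusted p was 0.52.

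The gene rgrb encodes an RGR opsin, a retinal-binding photoisomerase relative that in mammals is found in the RPE and Müller glia. It gave 1388, 1099 and 918 in DMSO eyes and 698, 657 and 959 in RA-treated eyes. In clutches 1 and 3 the RA array was lower, with log2 differences of -0.99 and -0.74, and in clutch 4 it was slightly higher (0.063), so the groups overlapped. The log2 fold change was -0.56 (SE 0.24, 95% interval -1.14 to 0.025, adjusted p = 0.59). It moved both ways with the clutches kept. Without both arrays of clutch 4 the log2 fold change was -0.87 (adjusted p = 0.58), and without both of clutch 1 it was -0.34 (adjusted p = 0.89). Without the DMSO array of clutch 1 alone it was -0.40 (adjusted p = 0.70).

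Among 8 measured genes of pigment epithelium and pigment cells, a list that takes in RPE and neural crest pigment cells alike, 0 passed the test, and the median log2 fold change was 0.027, beside -0.023 over all 8793 genes. The pigment genes dct, which encodes an enzyme of melanin synthesis, and pmelb, which encodes a melanosome protein, had log2 fold changes of -0.019 and 0.073 (adjusted p = 0.996 and 0.95), and bsg, which encodes basigin, had 0.094 (adjusted p = 0.94). The summed signal of the list was 4128 to 5097 in DMSO eyes and 4615 to 4675 in RA-treated eyes, within the DMSO range. The upper end of the DMSO range is the array of clutch 1. Of the pigment cell regulators, mitfb lay at background on all arrays, and mitfa gave 41.3, 31.7 and 28.6 in DMSO eyes and 18.8, 30.9 and 30.2 in RA-treated eyes, with overlapping groups (log2 fold change -0.36, adjusted p = 0.82). The part of RPE and pigment cell number in the signals of rlbp1a and rgrb was not tested.

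The gene rbp3 encodes the carrier IRBP, and in whole-eye pools its signal cannot be assigned to photoreceptors or the RPE. Its signals were 1365, 1298 and 1295 in DMSO eyes and 1519, 1447 and 1807 in RA-treated eyes. Every RA array lay above every DMSO array, by 0.15, 0.16 and 0.48 on the log2 scale within clutches 1, 3 and 4. The mean went from 1319 ± 39.5 (SD, n = 3 pools) to 1591 ± 190, a log2 fold change of 0.26 (95% interval -0.13 to 0.66, adjusted p = 0.77). The 6 measured of 16 listed rod genes all had positive log2 fold changes and a median of 0.33, with 0 past the threshold. Over all 8793 genes 53.7% were negative. Of the rod genes, gnat1, pde6a and gngt1 were lower with RA in clutch 1, and nr2e3 in clutch 4. Only rom1b had groups that did not overlap. The measured cone genes had a median of -0.069 over 14 genes. Of these 20 rod and cone genes, 1 passed, opn1lw1, which encodes a red cone opsin, with group means of 42.2 in DMSO and 1633 in RA-treated eyes. The summed signal of the rod list was 4011 to 5078 in DMSO eyes and 4878 to 5249 in RA-treated eyes. That of the cone list was 22120 to 25140 and 22860 to 24580, and it includes the rise of opn1lw1. Of the 14 cone genes 8 had negative and 6 positive log2 fold changes. The 3 brightest, gngt2b, opn1sw2 and opn1sw1, had -0.11, -0.21 and -0.19 (adjusted p = 0.94, 0.84 and 0.87). The part of these lists in the value of rbp3 was not tested.

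Since all genes of an array share its scaling, ratios between members on the same array were taken as a further description, chosen after their values were seen and without a test. Relative to its mean on the DMSO arrays, the log2 ratio of rbp3 to rlbp1a was -0.047, -0.0008 and 0.048 on the DMSO arrays of clutches 1, 3 and 4 and 0.55, 0.80 and 0.80 on the RA arrays. For rbp3 to rgrb the RA arrays were 0.88, 0.90 and 0.68 above that mean, and the DMSO arrays ran from -0.26 to 0.26. The ratio of rpe65a to rlbp1a was higher with RA by 0.43, with the DMSO array of clutch 1 (0.29) just below the RA array of the same clutch (0.31). The ratio of rpe65a to rgrb was higher by 0.53. The ratio of rgrb to rlbp1a, the 2 genes with lower means, was -0.33, -0.10 and 0.12 on the RA arrays and -0.21 to 0.21 on the DMSO arrays, and its groups overlapped. In the other 4 ratios, each a gene of higher or level signal over one of lower signal, the groups did not overlap. That separation follows in part from the choice of pairs and supports no difference, and a ratio does not say which of its 2 genes differed.

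**Figure D2:**
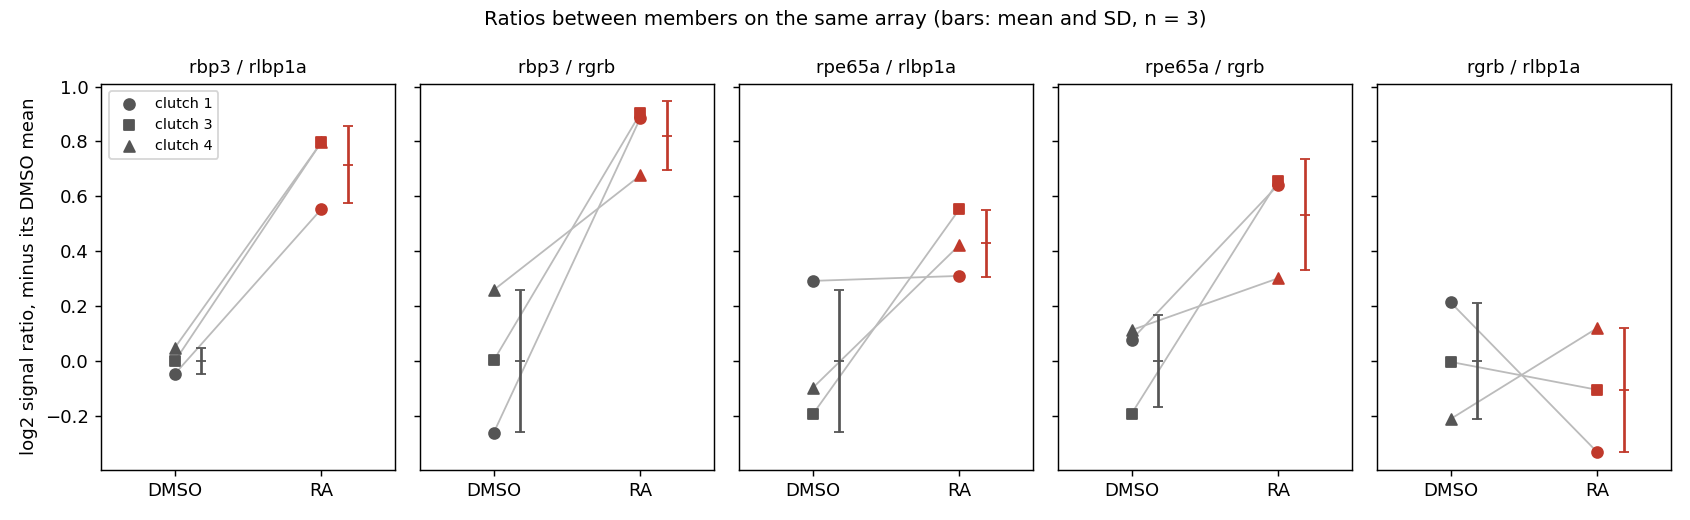
Log2 ratio of the signals of 2 members on the same array, minus the mean of that ratio on the DMSO arrays (vertical axis), for 5 pairs. Points are arrays, grey lines join the arrays of a clutch, and bars give mean and SD (n = 3); for rbp3 over rlbp1a the RA arrays sit at 0.55 to 0.80 and the DMSO arrays at -0.047 to 0.048, while for rgrb over rlbp1a the groups overlap.

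The retinol dehydrogenase genes ranged from background to well above it. The gene rdh14b, whose mammalian counterpart encodes a widely expressed retinol dehydrogenase, was above background throughout. It gave 137, 140 and 155 in DMSO eyes and 118, 119 and 148 in RA-treated eyes, lower with RA in all 3 clutches and with overlapping groups. Its log2 fold change was -0.17 (95% interval -0.59 to 0.25, adjusted p = 0.89).

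The gene rdh12l is a relative of RDH12, which in humans reduces retinal in photoreceptor inner segments. It gave 25.1, 16.8 and 18.1 in DMSO eyes and 15.8, 18.7 and 31.0 in RA-treated eyes. The clutches went opposite ways, lower with RA in clutch 1 (a log2 difference of -0.67) and higher in clutch 4 (0.78). The log2 fold change was 0.090 (95% interval -0.66 to 0.84, adjusted p = 0.98), and its sign turned without clutch 4 (-0.26, adjusted p = 0.83).

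The gene rdh10b belongs to the RDH10 group, which in vertebrate embryos oxidizes retinol as the first step of RA synthesis. It gave 17.6, 16.3 and 16.5 in DMSO eyes, a little above background, and 12.2, 11.7 and 14.8 in RA-treated eyes, where 2 of the 3 arrays lay at background. The groups did not overlap, and all 3 clutches were lower with RA. The log2 fold change of -0.39 (95% interval -0.79 to 0.020, adjusted p = 0.59) is a rough value, since signals at background enter it. The gene rdh1 lay at background on all 6 arrays (0.49 to 5.67), so no fold is read from it, and its fitted log2 value of -0.50 enters only the counts and the median over the list.

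The carotenoid side gave little signal. The gene bco2a encodes a carotenoid oxygenase of the mitochondrion, an eccentric-cleaving relative of RPE65, and both of its probe sets were designed on the same transcript cluster. One of them, with the name ending _x_at, gave 6.45, 6.18 and 15.99 in DMSO eyes and 6.25, 6.02 and 15.1 in RA-treated eyes, above background only on the 2 arrays of clutch 4. The other was at background on all 6 arrays and was highest in clutch 4 too (13.1 and 12.6, against 5.61 to 7.62 in clutches 1 and 3). That ending marks a probe set with probes that can match other transcripts. In this gene the clutch means spanned 1.35 on the log2 scale in the first probe set, while the log2 fold change between treatments was -0.057 (adjusted p = 0.996).

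The genes that entered by name only also stayed short of the threshold. The gene lratd1 gave 47.0, 45.0 and 36.2 in DMSO eyes and 51.1, 62.0 and 48.4 in RA-treated eyes, all higher with RA and without overlap (log2 fold change 0.33, 95% interval -0.13 to 0.80, adjusted p = 0.73). The gene lratd2a, near background, gave 16.7, 27.0 and 14.0 in DMSO eyes and 9.43, 12.5 and 14.2 in RA-treated eyes, of which only clutch 4 was above background (adjusted p = 0.63). Of the 2 probe sets of lratd2b, also near background, one gave 16.3, 17.9 and 28.3 in DMSO eyes and 13.4, 10.2 and 23.3 in RA-treated eyes, and the other 9.45, 16.5 and 20.9 and then 17.4, 19.5 and 19.8. They disagreed in sign, with log2 fold changes of -0.46 and 0.35 (adjusted p = 0.84 and 0.86).

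Taken as a list, 9 of the 12 genes had a negative log2 fold change, beside 53.7% of all 8793 genes with a single symbol. Several of these signs cannot be read. Of the 9, rdh1 lay at background on all arrays and bco2a was above it only in clutch 4. The signs of rdh1, bco2a and rpe65a turned when some arrays or clutches were left out. The dimmer probe sets of rpe65a and lratd2b had positive values. The median over the 12 was -0.28, beside -0.023 over all genes. Without the 3 lratd genes the median was -0.17 over 9 genes. By clutch the median difference was -0.36 in clutch 1, -0.35 in clutch 3 and -0.021 in clutch 4. The median was nearer 0, at -0.048, without the RA array of clutch 3, and -0.49 without that of clutch 4. With signals under background set to 13.2 it was -0.099, since several of the genes lay near background, with a pseudocount of 16 it was -0.098, and with all probe sets of a gene averaged, rather than the brightest taken, it was -0.13.

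**Figure D3:**
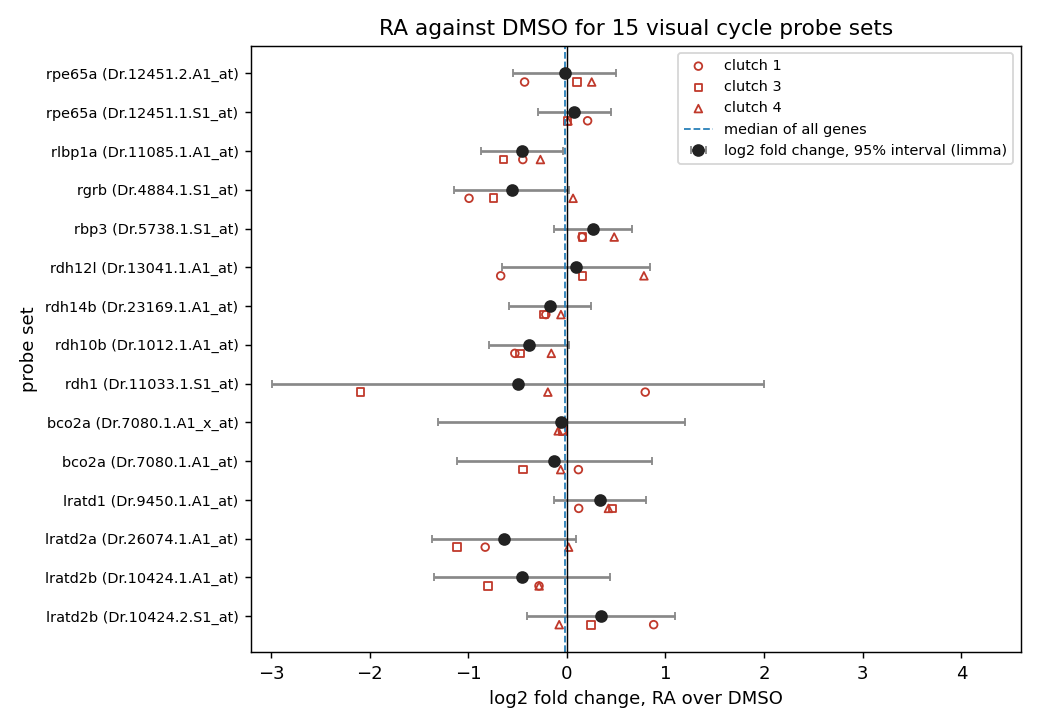
Log2 fold change of RA over DMSO (horizontal axis) for the 15 probe sets (vertical axis), with 95% intervals from limma (black points, n = 3 arrays per group) and the difference within each clutch (open symbols). The dashed line is the median of all genes (-0.023), and the interval of rlbp1a, -0.87 to -0.037, is the one that leaves out 0.

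Of 21 measured genes of retinoid uptake, transport and breakdown outside the members, 3 rose (cyp26a1, cyp26b1 and dhrs3a, which encode enzymes that clear RA or its precursor), 0 fell and 18 did not pass, with a median log2 fold change of -0.021. The gene rbp4, which encodes the retinol carrier of plasma, had a log2 fold change of 0.67 (adjusted p = 0.31) and rbp2a, for a cellular retinol-binding protein, 0.40 (adjusted p = 0.69). At an unadjusted p under 0.05 there were 7 higher and 2 lower, the 3 that rose included, beside 8.76% of all probe sets in either direction. The higher ones include rbp4 and cyp26c1, which is related to cyp26a1 by name. The signal of cyp26c1 was at background on all DMSO arrays and above it on 1 RA array (log2 fold change 1.39, adjusted p = 0.24). Both lower ones and 2 more of the higher ones are described next, chosen after their values were seen. The gene aldh1a2, which encodes a retinaldehyde dehydrogenase that makes RA, gave 64.9, 36.3 and 37.7 in DMSO eyes and 17.95, 14.4 and 11.8 in RA-treated eyes, of which that of clutch 4 was at background (log2 fold change -1.62, adjusted p = 0.12). The paper, whose methods name RMA values and SAM, reports aldh1a2 as significantly lower with RA. The signals and the main test here are others. The gene crabp1a, which encodes a cellular RA-binding protein, gave 210.1, 142.6 and 134.8 and then 102.4, 85.8 and 103.6 (log2 fold change -0.72, adjusted p = 0.42). In both every RA array lay below every DMSO array. The gene of the retinol uptake receptor of the RPE, stra6, gave 548, 527 and 502 in DMSO eyes and 801, 828 and 733 with RA, a difference of 0.58 on the log2 scale (adjusted p = 0.29). The gene cyp27c1, whose product makes the vitamin A2 form of retinol in zebrafish, gave 51.7, 68.0 and 70.6 and then 106, 128 and 97.0 (log2 fold change 0.80, adjusted p = 0.28). In stra6 and cyp27c1 every RA array lay above every DMSO array, and none of the 4 genes passed. Since the 4 were picked by their p, the lack of overlap follows in large part from the choice. Over all probe sets tested the share without overlap was 15.3%.

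Genes of other tissues in the dissected eyes were described beside these values. Of 10 Müller glia genes 0 passed (median 0.088), with 6 positive and 4 negative log2 fold changes. At an unadjusted p under 0.05, 4 were higher and 0 lower, gfap, vim, apoeb and s100b. The share of all probe sets at this cut was 8.76% in either direction, here and for the lists below. These 4 genes had log2 fold changes of 1.26, 1.13, 0.79 and 0.71 (adjusted p = 0.35, 0.16, 0.28 and 0.28). Their groups did not overlap, while those of every other gene of the list overlapped. Since the 4 were picked by their p, this separation follows in large part from the choice and supports no difference. Over all probe sets tested the share without overlap was 15.3%. The value of s100b is a rough one, since it was at background on all DMSO arrays. The 3 brightest genes of the list, fabp7a, slc1a2b and glula, had 0.093, -0.23 and -0.16 (adjusted p = 0.95, 0.83 and 0.90). The list had summed signals of 6028 to 6397 in DMSO and 6232 to 7164 in RA-treated eyes. The summed signal was lower in RA-treated eyes, without overlap, for blood and muscle. For 8 genes of blood it was 2452 to 3401 in DMSO eyes against 1776 to 2186 (0 past the threshold, median -0.14). For 12 of muscle it was 4122 to 5346 against 3269 to 3970 (median -0.15). In both sums bright genes weigh most. The brightest of blood, hbae3, had group means of 1794 and 1182 and groups that did not overlap. The brightest of muscle, actc1b, had group means of 1841 and 1361 and groups that overlapped. The muscle genes went both ways, 6 positive and 6 negative. Among them pvalb1 and pvalb2, the genes of parvalbumin calcium buffers, fell (log2 fold changes -1.91 and -2.28, adjusted p = 0.027 and 0.022). Both are part of the muscle sum, with group means of 156 and 42.0 (pvalb1) and 506 and 104 (pvalb2) in DMSO and RA-treated eyes. The separation of that sum thus cannot be read as a fall of muscle genes in general. At an unadjusted p under 0.05, 4 muscle genes were lower and 1, tnnt3a, was higher (log2 fold change 1.06, adjusted p = 0.22). Of the blood genes, the globin genes hbae3 and hbbe2, cahz, alas2 and slc4a1a were above background on all arrays, and hbbe3, gata1a and epb41b were at background on all. The blood genes also went both ways, 6 negative and 2 positive. The positive ones were hbbe3 and slc4a1a, of which slc4a1a was higher with RA in all 3 clutches (log2 fold change 0.24, adjusted p = 0.89). Of 5 lens genes cryaa, which encodes a crystallin, rose (log2 fold change 1.21, adjusted p = 0.082), with summed signals of 7254 to 9720 in DMSO and 8036 to 9305 in RA-treated eyes. Of 10 skin genes 0 passed (7281 to 8186 and 6984 to 7829). At an unadjusted p under 0.05, 0 were higher and 1 lower, the keratin gene krt1-19d. It was above background on 1 RA array only (log2 fold change -1.51, adjusted p = 0.12). Of 11 liver and plasma genes fgg and cp, which encode plasma proteins, rose (adjusted p = 0.074 and 0.051), and the list had summed signals of 95.9 to 209 and 163 to 459. On the DMSO arrays fgg lay at background throughout, and cp on all but 1. At an unadjusted p under 0.05 these 2 were higher and 2 lower, hp and ambp, both partly at background. Their log2 fold changes were -1.19 and -1.45 (adjusted p = 0.15 and 0.50). The gene fabp10a, which marks hepatocytes, lay at background on all arrays. With the clutch as a block these calls of cryaa, pvalb1, pvalb2, fgg and cp were lost (adjusted p = 0.18, 0.17, 0.16, 0.28 and 0.16). The part of these tissues in the signals of rlbp1a and rgrb was not tested.

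**Figure D4:**
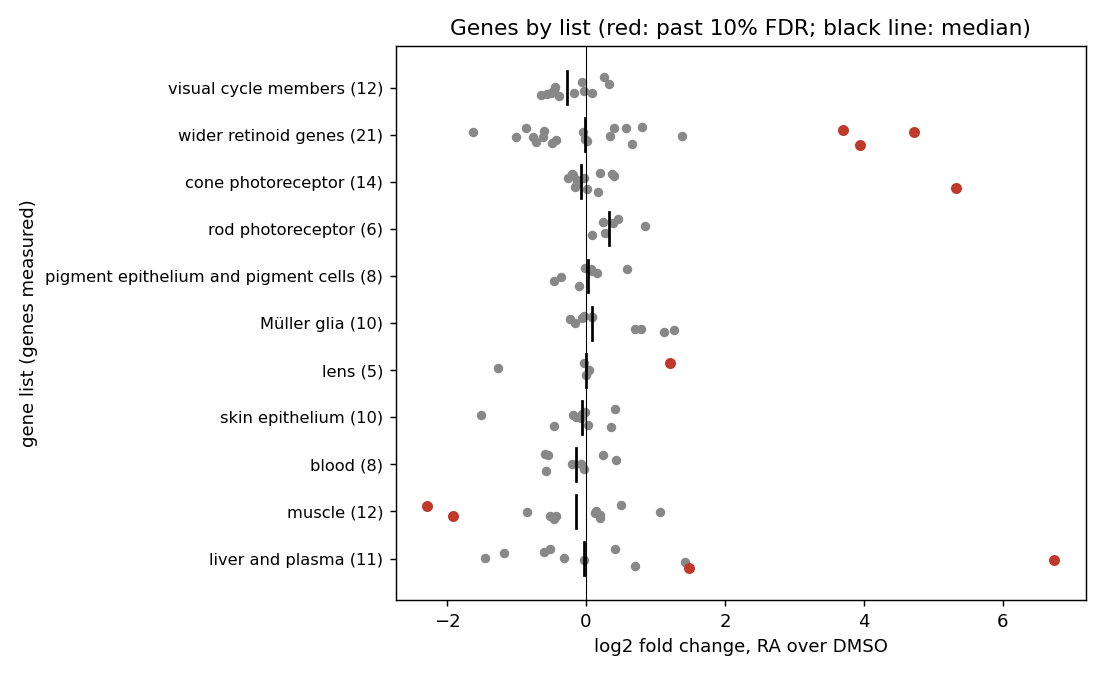
Log2 fold change of RA over DMSO (horizontal axis) for each measured gene of the visual cycle members and of 10 other lists (vertical axis, number of genes in brackets). Each point is a gene by its brightest probe set, including those at background, red points passed 10% FDR and black lines are medians, which run from -0.28 for the members to 0.33 for the rod genes.

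The genes whose 6 signals were most like those of rgrb and rlbp1a, the 2 members above background on all arrays with the largest size of log2 fold change, were picked by the root mean square difference of log2 signals over the 6 arrays, each centred on its own mean. For rgrb they were bmper, nudcd1 and cops4, with differences of 0.072, 0.088 and 0.10, beside a median of 0.43 over 7280 probe sets. For rlbp1a they were inab, wu:fc46h12 and rps27l, with 0.054, 0.062 and 0.064, beside a median of 0.33. In bmper, for example, the signals were 69.9, 59.8 and 51.9 in DMSO eyes and 37.9, 39.1 and 52.1 in RA-treated eyes. None of these 6 passed the test (adjusted p of 0.48 to 0.62), and the 6 arrays share 3 clutches.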

How the data were processed

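Eyes of zebrafish embryos were measured on 6 Affymetrix arrays, 3 DMSO and 3 RA. The authors deposited 1 linear signal intensity for each probe set and array, and the 2% trimmed mean of these is 125 on all 6 arrays. The study's methods describe RMA values, which these are not, and how they were summarised is not given in the sources used here. Array medians were 39.5 to 43.5, and 67.1% to 69.8% of probe sets lay above background. Precision is limited by the number of arrays, and the standard error of a log2 difference had a median of 0.21 over probe sets above background.

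Log2 of the signals was compared in R 4.3.3 with limma 3.58.1 (lmFit, eBayes, two-sided) over 15555 probe sets, leaving out 62 control probe sets. The platform's annotation gives 1 symbol to 10802 probe sets, several to 135 and none to 4680. A gene is given by its brightest probe set. The methods split each clutch between the treatments, and deviations of same-numbered arrays correlated at 0.16, 0.42 and 0.28 over 9791 probe sets. Correlations between arrays of different numbers were not computed, so these values cannot show that equal numbers share a clutch. The main fit held the treatment only, so its p-values, standard errors and intervals are unpaired. Because the methods split each clutch, same-numbered arrays were paired for the differences within clutches. In an alternative fit the number served as a clutch block. Alternatives were this block, left-out arrays and clutches, median centring, quantile normalization, a filter, a pseudocount of 16, a floor at background, a variance trend, array weights, SAM with 20 relabelings, and FDRs of 5% and 20%. The scripts were tested on simulated data.

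Members and the 10 gene lists were chosen with earlier results of these data known. Named genes are all members, of each list those that passed (up to 4) or were among the 3 brightest, as far as a result turns on them, the enzymes that check the treatment, and for the 2 members described the 3 genes most alike. Other names (genes of a list at background, mitfa, further blood genes, the 4 Müller glia genes that were higher, tnnt3a, hp, ambp, aldh1a2, crabp1a, stra6 and cyp27c1) were chosen after their values were seen.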

Additional observations from a re-analysis of the deposited data

How the results depend on the processing

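No member probe set passed under any of the 20 alternatives run. The number called over the array (131) was 45 with the clutch as a replicate block, 272 with probe sets above background on at least 3 arrays, 232 with a pseudocount of 16, 274 with a variance trend, 593 with array weights, 73 at an FDR of 5% and 291 at 20%, and 52 to 117 without 1 array and 16 to 54 without 1 clutch. The calls among genes of the other lists (9) were 4 with the block, 14 with that filter, 16 with the pseudocount, 17 with the trend and 20 with array weights, and 4 to 8 without 1 array or clutch. The block changed no call of a member. The median of the members ran from -0.49 to -0.048 without 1 array or clutch, and was -0.098 with the pseudocount, -0.099 with a floor at background and -0.13 with all probe sets of a gene averaged.

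Of 297 single values of member probe sets under the alternatives, 280 kept their direction and 17 turned. Those that turned were all in probe sets near 0 or near background. Among the 280 are values that could not turn. The clutch block, the filter, the variance trend, SAM and the changed FDR thresholds left the log2 fold change as in the main fit. With the floor, rdh1 and the bco2a probe set at background on all arrays had no difference left, yet were counted as kept. This tally thus overstates how stable the directions were. The brighter probe set of rpe65a turned to 0.17 without the DMSO array of clutch 1, 0.18 without clutch 1, 0.020 without the RA array of clutch 3, 0.0038 after quantile normalization and 0.12 with array weights. That of rdh12l turned to -0.025 and -0.19 without the DMSO array of clutch 3 or the RA array of clutch 4, and -0.26 without clutch 4. For bco2a the x_at probe set turned to 0.39, 0.15 and 0.17 without the DMSO array of clutch 4 and the RA arrays of clutches 1 and 3, and the other to 0.18, 0.11 and 0.03 without the DMSO array of clutch 4, the RA array of clutch 3 and clutch 3. For rdh1, at background on all arrays and read as no fold, the fitted value turned to 0.22, 0.30 and 0.30 under the same 3. Over all left-out arrays and clutches these ran from -0.16 to 0.18 (rpe65a), -0.26 to 0.47 (rdh12l), -0.49 to 0.39 and -0.47 to 0.18 (bco2a) and -1.37 to 0.30 (rdh1). The cause was not tested. The values of rlbp1a ran from -0.54 to -0.35 (adjusted p of 0.16 to 1), those of rgrb from -0.87 to -0.34 (0.15 to 1) and those of rbp3 from 0.16 to 0.33 (0.43 to 1).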
